A study of Homo sapiens with 12 samples.

Results

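The genes described here are 10 genes of the YAP and TEAD program, namely ANKRD1, CCN1, CCN2, AXL, F3, FJX1, AMOTL1, AMOTL2, LATS2 and YAP1. They were taken from the deposited expression table by symbol, and all 10 were found among its 28576 genes. Poly(A) RNA was sequenced from SHEP, a human neuroblastoma cell line, in 12 libraries that form 4 groups of 3. Every library, controls included, came from cells with a MYCN-ER fusion, which 4-hydroxytamoxifen (OHT) activates, and a short hairpin RNA against TCEAL1, which doxycycline (Dox) induces. The groups are OHT_Dox (200 nM OHT and 1 µg/ml Dox), OHT (200 nM OHT alone), Dox (1 µg/ml Dox alone) and Ctrl (neither compound). No OHT group without the fusion and no Dox group without the hairpin was analysed here, so effects of the compounds and of what they switch on cannot be told apart. The labels give no treatment times. They leave unsaid whether replicates came from separate cultures, so a p-value sets a difference against the spread of these libraries, which may be technical.

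YAP1 and its paralogue WWTR1 (TAZ) are transcriptional coactivators that bind DNA through the TEAD factors. The Hippo kinases phosphorylate them, which holds them in the cytoplasm or marks them for degradation. Hippo signalling is slowed by cell spreading and stiff substrates and is strengthened by cell contact. ANKRD1, CCN1 and CCN2 are the targets most often used as a readout of YAP and TEAD activity. Several targets act back on the pathway: LATS2 is a kinase that inactivates YAP, and the angiomotin-like proteins AMOTL1 and AMOTL2 bind YAP and can hold it out of the nucleus. In neuroblastoma, cells of the mesenchymal state are known for YAP activity, and SHEP is used as a mesenchymal line.

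The promoters of the readout genes are shown because the letters TEAD factors recognise stand in them. RefSeq promoters (GRCh38.p14) were matched for 9 of the 10 genes, 11 promoters in all, and CCN1 was not matched. The 250 bases before the start of ANKRD1 (chr10:90921088-90921337, minus strand) and of CCN2 (chr6:131951373-131951622, minus strand) read as follows, 5′ to 3′, with the TEAD letters GGAATG in capitals.
ANKRD1: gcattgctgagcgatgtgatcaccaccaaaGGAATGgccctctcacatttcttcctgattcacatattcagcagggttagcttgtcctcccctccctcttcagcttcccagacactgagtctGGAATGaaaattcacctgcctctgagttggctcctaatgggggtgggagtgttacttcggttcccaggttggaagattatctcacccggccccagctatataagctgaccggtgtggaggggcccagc
CCN2: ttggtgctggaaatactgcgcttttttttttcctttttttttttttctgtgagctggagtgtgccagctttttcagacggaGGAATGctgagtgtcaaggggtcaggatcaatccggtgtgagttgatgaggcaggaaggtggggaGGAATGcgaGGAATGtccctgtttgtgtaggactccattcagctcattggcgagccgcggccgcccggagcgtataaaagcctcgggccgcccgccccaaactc
The search covered both strands (CATTCC or GGAATG) from 250 bases before to 50 bases after the start. ANKRD1 held 2 matches, at -220 and -128, and CCN2 held 3, at -169, -104 and -95. Of 35116 RefSeq promoters of that length, 14.0% held at least 1 match, 1.36% at least 2 and 0.125% at least 3. AXL, AMOTL2, LATS2 and YAP1 held 1 match each, which for AXL and AMOTL2 stood in the second of their promoters. F3, FJX1 and AMOTL1 held none in this window. A match is a run of letters and was not tested as a binding site.

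Values are read counts per 1000000 (CPM) as deposited. Libraries held between 44466458 and 57694970 reads. TCEAL1, the hairpin's target, lay between 1.73 and 2.74 CPM in the libraries with Dox and between 8.23 and 10.7 CPM in those without. MYCN, whose transcript level does not show whether the fusion was active, lay between 376 and 644 CPM and fell by 0.34 ± 0.10 in OHT_Dox against Dox (limma, adjusted p = 0.019), a difference whose part in the results was not tested. The mesenchymal marker list was expressed (8 of 8 tested, summed level 3367 to 4423 CPM), with sums of 3367 to 3596 CPM in OHT_Dox, 3957 to 4190 CPM in OHT, 3404 to 3598 CPM in Dox, and 4138 to 4423 CPM in Ctrl. This list holds YAP1 itself, and most of its sum was VIM (2223 to 3083 CPM), which fell by 0.30 ± 0.06 in Dox against Ctrl. Its members did not move together: PRRX1 rose with OHT (0.68 ± 0.06 against Ctrl, and 0.38 ± 0.06 in OHT_Dox against Dox). SNAI2 fell with Dox (-1.28 ± 0.12 in Dox against Ctrl, and -1.09 ± 0.12 in OHT_Dox against OHT). The adrenergic list (7 of 8 matched, 4 of them tested) summed to 134 to 142 CPM in OHT_Dox, 117 to 132 CPM in OHT, 107 to 109 CPM in Dox and 102 to 109 CPM in Ctrl. Most of that sum was HAND2 (47.6 to 64.1 CPM) and GATA2 (33.3 to 57.5 CPM), which both rose with OHT: HAND2 by 0.24 ± 0.06 and GATA2 by 0.34 ± 0.07 against Ctrl, and by 0.36 ± 0.06 and 0.56 ± 0.07 in OHT_Dox against Dox. GATA3 and ISL1 lay between 7.30 and 12.4 CPM, and PHOX2A and DBH at no more than 0.581 CPM. Both sums moved with the treatments, and their part in the results was not tested. The matched epithelial, haematopoietic and endothelial markers (2 of each list) summed to at most 1.99, 0.540 and 0.194 CPM in any library. The haematopoietic pair was PTPRC and CD14, since HBB and CD3E were not matched. Outside that list, the globin genes HBE1 and HBG2 averaged 131 and 159 CPM over the 12 libraries.

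The 10 genes were chosen by a proposal that had fold changes of these same libraries in view, ANKRD1, CCN1, CCN2 and FJX1 among them, and which of the folds decided is not recorded. Their levels, folds and calls are therefore a description in every comparison, and are not evidence for the group as a whole. Fold changes are given as log2 values with their SE, from a limma fit of log2(CPM + 0.5) over 18674 genes. A gene is said to have risen or fallen where its Benjamini-Hochberg adjusted p over all these genes was below 0.05.

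All 10 are protein-coding genes (GENCODE 29). ANKRD1 lies on chromosome 10, CCN1 and F3 on chromosome 1, CCN2 on 6, AMOTL2 on 3, LATS2 on 13, AXL on 19, and AMOTL1, FJX1 and YAP1 on 11. Per kilobase of merged exons, ANKRD1 was the most abundant of the 10 genes in every group. In Ctrl its level was 354 ± 34 CPM per kb (SD, n = 3), rank 104 of 18673 genes. CCN1, a secreted matricellular protein, followed at 179.97 ± 5.65 CPM per kb, and CCN2, its relative also known as connective tissue growth factor, at 98.2 ± 4.2 CPM per kb. The receptor tyrosine kinase AXL stood at 55.3 ± 1.1 CPM per kb, AMOTL2 at 26.8 ± 1.0 and FJX1 at 26.1 ± 1.1, the last pair within their spread. YAP1 itself was at 14.3 ± 1.4 CPM per kb, AMOTL1 at 5.24 ± 0.59 and LATS2 at 4.53 ± 0.35. The least abundant was F3, tissue factor, the cell surface starter of blood coagulation, at 1.05 ± 0.05 CPM per kb, rank 14725.

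**Figure D1:**
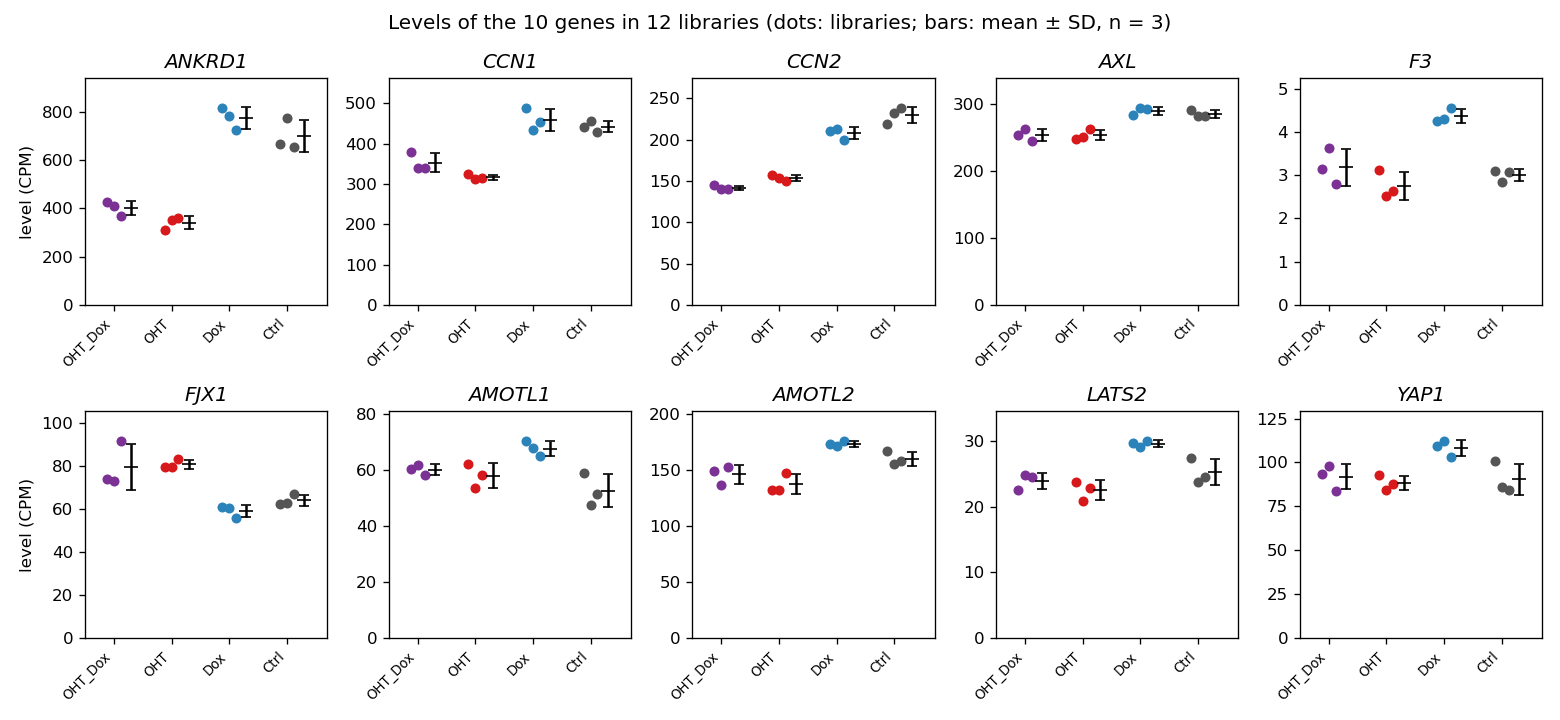
Level of each of the 10 genes (vertical axis, CPM, from 0) in OHT_Dox, OHT, Dox and Ctrl, with 1 dot per library and bars for mean ± SD (n = 3). ANKRD1 lies at 309 to 427 CPM in the 6 libraries with OHT and at 656 to 817 CPM in the 6 without, while FJX1 lies higher with OHT and F3 highest in Dox.

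The 3 readout genes were lower with OHT, both without and with Dox. ANKRD1 (ENSG00000148677), a nuclear ankyrin repeat protein first known from cardiac muscle, had 309, 354 and 362 CPM in OHT, against 668, 777 and 656 CPM in Ctrl. With the hairpin induced it had 427, 409 and 369 CPM in OHT_Dox, against 817, 783 and 726 CPM in Dox. No library with OHT reached any library without it. ANKRD1 fell by 1.03 ± 0.07 in OHT against Ctrl and by 0.95 ± 0.07 in OHT_Dox against Dox, to 48.8% and 51.8% of the mean without OHT. In bulk RNA, fewer cells that express a gene and less of its RNA per cell cannot be told apart. In the rank of abundance per kilobase over 18673 genes, ANKRD1 was at 223 in OHT_Dox, 283 in OHT, 78 in Dox and 104 in Ctrl.

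CCN1 and CCN2 fell less. CCN1 (ENSG00000142871) had 324, 313 and 313 CPM in OHT, against 440.1, 456 and 429 CPM in Ctrl, and 379, 339 and 338 CPM in OHT_Dox, against 488, 433 and 453 CPM in Dox. Its groups did not overlap in either comparison, and it fell by 0.48 ± 0.06 in OHT against Ctrl and by 0.38 ± 0.06 in OHT_Dox against Dox. CCN2 (ENSG00000118523) had 157, 153 and 149.8 CPM in OHT, against 219, 232 and 238 CPM in Ctrl. With Dox it had 144, 140.1 and 139.8 CPM in OHT_Dox, against 211, 212 and 199 CPM in Dox. The OHT libraries were again all lower, and CCN2 fell by 0.58 ± 0.05 in OHT against Ctrl and by 0.55 ± 0.05 in OHT_Dox against Dox. An annotated antisense gene, AL133346.1, shares 195 exon bases with CCN2. Its counts could not be separated from those of CCN2 because the strand setting of the counting is not stated, and it fell too (-0.51 ± 0.10 in OHT against Ctrl), at no more than 21.5 CPM. The 3 readout genes together came to 896 ± 53 CPM in OHT_Dox and 812 ± 18 CPM in OHT, against 1441 ± 70 CPM in Dox and 1372 ± 81 CPM in Ctrl.

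FJX1 moved the other way. It encodes a secreted protein related to Drosophila four-jointed, a modifier of the Fat and Dachsous cadherins upstream of the fly Hippo pathway. FJX1 (ENSG00000179431) had 79.2, 79.5 and 82.9 CPM in OHT, against 62.3, 62.7 and 67.0 CPM in Ctrl, and 73.8, 72.8 and 91.4 CPM in OHT_Dox, against 60.6, 60.5 and 55.5 CPM in Dox. Every library with OHT lay above every library without it. FJX1 rose by 0.33 ± 0.07 in OHT against Ctrl and by 0.42 ± 0.07 in OHT_Dox against Dox. OHT_Dox replicate 3 gave the highest level (91.4 CPM). That library's deviations from its group's means rose with GC content across genes (Spearman correlation 0.528, the highest of the 12). Those of OHT_Dox replicate 2 fell with it (-0.501), and those of Dox replicate 3 (0.291) and Ctrl replicate 3 (0.287) rose too. The longest FJX1 transcript has 63.8% GC. The OHT_Dox against Dox fold was 0.32 without OHT_Dox replicate 3 and 0.31 after trends with GC content and length were removed. That removal was chosen after seeing the data, and FJX1 was called in both fits. The FJX1 promoter (chr11:35618210-35618459, plus strand, GRCh38.p14) is shown too, and held no TEAD letters. It held 1 match to the palindromic E-box CACGTG, the letters MYC proteins prefer, in capitals at -85.
FJX1: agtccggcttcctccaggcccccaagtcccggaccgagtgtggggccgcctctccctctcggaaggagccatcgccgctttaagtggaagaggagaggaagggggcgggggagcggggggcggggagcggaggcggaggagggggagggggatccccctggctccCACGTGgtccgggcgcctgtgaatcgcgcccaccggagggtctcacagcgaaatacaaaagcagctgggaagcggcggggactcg
Of the 35116 promoters, 7.26% held at least 1 CACGTG. LATS2 (at -5) and YAP1 (at -203) held 1 as well, and neither rose with OHT in either setting. F3 and AMOTL1, also without TEAD letters, did not rise with OHT either. The FJX1 match was not tested as a site, and its part in the rise was not tested.

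AXL and F3 complete the targets. AXL (ENSG00000167601) had 248, 250.1 and 262 CPM in OHT, against 291, 282 and 282 CPM in Ctrl, and 253, 262 and 244 CPM in OHT_Dox, against 283, 294 and 293 CPM in Dox. The groups did not overlap, though the falls were small, 0.17 ± 0.05 in OHT against Ctrl and 0.20 ± 0.05 in OHT_Dox against Dox. AXL was no longer called in OHT against Ctrl without OHT replicate 1 (-0.15). An antisense gene, AC011510.1, shares 67 exon bases with AXL and reached 14.1 CPM. F3 (ENSG00000117525) had 3.12, 2.51 and 2.64 CPM in OHT, against 3.09, 2.84 and 3.09 CPM in Ctrl, and these groups overlapped (-0.11 ± 0.13, not called). With Dox it had 3.14, 3.64 and 2.79 CPM in OHT_Dox, against 4.26, 4.31 and 4.56 CPM in Dox, and fell by 0.41 ± 0.13. That call of F3 was lost without OHT_Dox replicate 1 (-0.40), OHT_Dox replicate 3 (-0.33), Dox replicate 2 (-0.42) or Dox replicate 3 (-0.38).

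Among the genes that restrain YAP, AMOTL2 (ENSG00000114019) fell with OHT in both settings. It had 132, 132 and 148 CPM in OHT, against 167, 155 and 158 CPM in Ctrl (-0.22 ± 0.06), and 149, 137 and 153 CPM in OHT_Dox, against 173, 171 and 176 CPM in Dox (-0.25 ± 0.06). Neither pair of groups overlapped. A pseudogene on the same strand, RPL39P5, shares 187 exon bases with AMOTL2. LATS2 (ENSG00000150457) had 23.9, 20.9 and 22.9 CPM in OHT, against 27.5, 23.8 and 24.6 CPM in Ctrl, which overlapped (-0.16 ± 0.08, not called). In the Dox setting LATS2 had 22.5, 24.8 and 24.6 CPM in OHT_Dox, against 29.8, 29.1 and 30.1 CPM in Dox, and fell by 0.30 ± 0.08 with no overlap.

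AMOTL1 (ENSG00000166025) did not pass the threshold for OHT in either setting. It had 62.2, 53.5 and 58.4 CPM in OHT, against 59.0, 47.4 and 51.5 CPM in Ctrl (0.14 ± 0.07), and 60.6, 61.8 and 58.1 CPM in OHT_Dox, against 70.5, 67.8 and 64.9 CPM in Dox (-0.17 ± 0.07). The first pair of groups overlapped and the second did not. Without Ctrl replicate 1, its fold in OHT against Ctrl was 0.23 and was called. An antisense gene, AP002383.2, shares 496 exon bases with AMOTL1 and reached 19.0 CPM.

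YAP1 (ENSG00000137693), the coactivator, had 92.7, 84.5 and 87.6 CPM in OHT, against 101, 85.8 and 84.5 CPM in Ctrl. These groups overlapped, and the fold was -0.03 ± 0.07 with a 95% interval of -0.18 to 0.12. With Dox, YAP1 had 93.5, 97.9 and 84.0 CPM in OHT_Dox, against 109, 112 and 103 CPM in Dox, and fell by 0.24 ± 0.07. This call was lost without OHT_Dox replicate 3 (-0.18), Dox replicate 1 (-0.23) or Dox replicate 2 (-0.21). An antisense gene, AP000942.2, shares 628 exon bases with YAP1 and reached 24.9 CPM. As for CCN2, the counts of the antisense gene could not be separated from those of YAP1. The mean of AP000942.2 in Dox was 118% of that in Ctrl, beside 120% for YAP1. In OHT_Dox it was 83.9% of that in Dox, beside 84.8% for YAP1.

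In OHT against Ctrl, 1 of the 10 genes rose and 5 fell, where 21.4% of all genes tested were called, 12.6% as higher and 8.79% as lower. In OHT_Dox against Dox, 1 rose and 8 fell, where 26% of all genes were called, 11.5% as higher and 14.5% as lower. Under TMM scaling 2553 of all genes rose and 2220 fell in OHT_Dox against Dox, beside 2153 and 2709 as reported, and the counts of the 10 genes were the same. The median fold of the 10 genes was -0.17 in OHT against Ctrl and -0.27 in OHT_Dox against Dox, beside -0.01 and -0.03 over all genes tested. All 3 OHT libraries lay below all 3 Ctrl libraries for 5 of the 10 genes and above for 1, where 16.7% of all genes lay below and 17.5% above. All 3 OHT_Dox libraries lay below all 3 Dox libraries for 9 of the 10 and above for 1, where 23.9% of all genes lay below and 17.4% above.

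**Figure D2:**
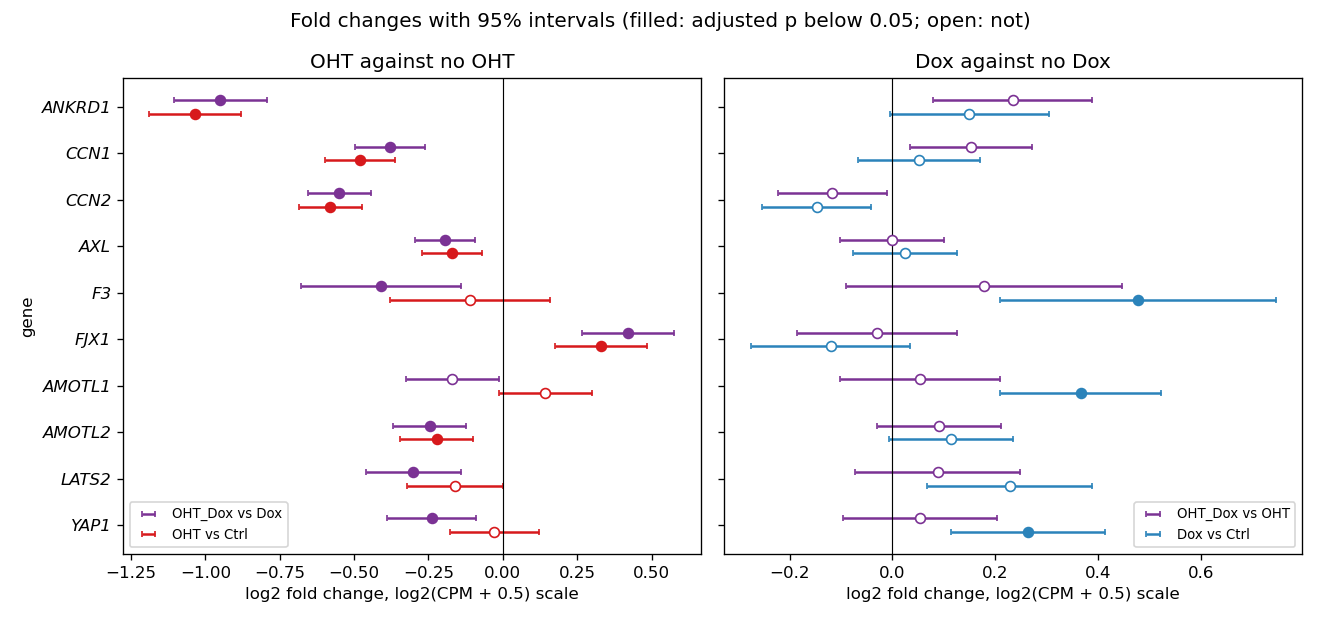
Log2 fold change of each of the 10 genes with its 95% interval (horizontal axis, log2(CPM + 0.5) scale) for OHT against no OHT (left) and Dox against no Dox (right), filled where the adjusted p was below 0.05. The largest falls with OHT are those of ANKRD1 (-0.95 with Dox and -1.03 without), while with Dox alone AMOTL1, F3 and YAP1 are filled on the right side of 0.

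With the hairpin induced and no OHT, AMOTL1 rose by 0.37 ± 0.07, F3 by 0.48 ± 0.13 and YAP1 by 0.26 ± 0.07 in Dox against Ctrl, where 8.29% of all genes were called, 5.68% as higher and 2.61% as lower. For these 3 genes every Dox library given above lay over every Ctrl library. LATS2 (0.23 ± 0.08) and AMOTL2 (0.11 ± 0.06) also had all Dox libraries above Ctrl without being called, and CCN2 (-0.15 ± 0.05) and FJX1 (-0.12 ± 0.07) had all Dox libraries below. That made 5 of 10 above and 2 of 10 below, where 19.1% of all genes lay above and 9.77% below. ANKRD1 (0.15 ± 0.07), CCN1 (0.05 ± 0.06) and AXL (0.02 ± 0.05) overlapped between Dox and Ctrl. The median of the 10 genes was 0.13, beside 0.05 over all genes. Of all genes 1061 rose and 487 fell, and under TMM scaling 519 rose and 771 fell.

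The Dox calls of AMOTL1, YAP1 and F3 were each lost when any of several libraries was left out, at folds of the same sign. AMOTL1 lost its call without Ctrl replicate 2 (0.29), Ctrl replicate 3 (0.35) or Dox replicate 2 (0.36). YAP1 lost it without Ctrl replicate 2 (0.23), Ctrl replicate 3 (0.22), Dox replicate 1 (0.25) or Dox replicate 2 (0.24), and under TMM scaling (0.21). F3 kept its call without Ctrl replicate 1 and lost it without Ctrl replicate 2 (0.44), Ctrl replicate 3 (0.49) or Dox replicate 1 (0.49), 2 (0.49) or 3 (0.45). Without Ctrl replicate 1, CCN2 (-0.18) and LATS2 (0.29) were called as well, and CCN2 also under TMM scaling (-0.20). The Dox libraries serve as the tested side here and as the baseline of OHT_Dox, so a high Dox level of F3 or YAP1 enters both comparisons with opposite sign.

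In OHT_Dox against OHT, limma called 0 of the 10 genes, where 2.1% of all genes tested were called, 0.509% as higher and 1.59% as lower. At an unadjusted p below 0.05 there were 3 of the 10, beside 2453 of all 18674 genes tested. On recovered reads, edgeR and DESeq2 called 0 of the 10. ANKRD1 (0.23 ± 0.07) and CCN1 (0.15 ± 0.06) had all OHT_Dox libraries above all OHT libraries, and CCN2 (-0.12 ± 0.05) had all of them below. This is 2 of 10 above and 1 of 10 below, where 10.4% of all genes lay above and 8.33% below. The folds of the other 7 genes, whose groups overlapped, lay between -0.03 for FJX1 and 0.18 for F3.

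The order of the 4 group means differed between genes. ANKRD1 and CCN1 stood highest in Dox, then Ctrl, OHT_Dox and OHT, and their Dox and Ctrl libraries overlapped while the lower steps did not. CCN2 ran Ctrl, Dox, OHT and OHT_Dox, with no overlap between neighbours. AMOTL2 and LATS2 had the order of ANKRD1, with OHT_Dox and OHT overlapping, and for LATS2 Ctrl and OHT_Dox too. FJX1 ran OHT, OHT_Dox, Ctrl and Dox, and OHT and OHT_Dox overlapped. F3 and YAP1 were highest in Dox, apart from the other 3 groups, which overlapped among neighbours. AMOTL1 was also highest in Dox and apart from OHT_Dox, and lowest in Ctrl. AXL was higher without OHT, and Dox and Ctrl overlapped, as did OHT and OHT_Dox.

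Whether the OHT response of a gene depended on Dox was tested as the difference of the OHT effects, (OHT_Dox minus Dox) minus (OHT minus Ctrl). Limma called 0 of the 10 genes and 0% of all genes tested. Of the 10 genes 1 was below an unadjusted p of 0.05, beside 2879 of all 18674 genes tested. On recovered reads, edgeR and DESeq2 called 0 of the 10. AMOTL1 had the lowest adjusted p (limma, adjusted p = 0.222), with a difference of -0.31 ± 0.11. YAP1 had -0.21 ± 0.10 (limma, adjusted p = 0.331) and F3 -0.30 ± 0.18 (limma, adjusted p = 0.446). For ANKRD1 the difference was 0.08 ± 0.10, with a 95% interval of -0.13 to 0.30, for CCN1 0.10 ± 0.08 (-0.07 to 0.27) and for CCN2 0.03 ± 0.07 (-0.12 to 0.18). Without Ctrl replicate 1, limma called AMOTL1 (-0.40, adjusted p = 0.028) and 1041 genes in all. So F3, LATS2 and YAP1, called for OHT with Dox and not without, were not shown to differ between the settings.

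**Figure D3:**
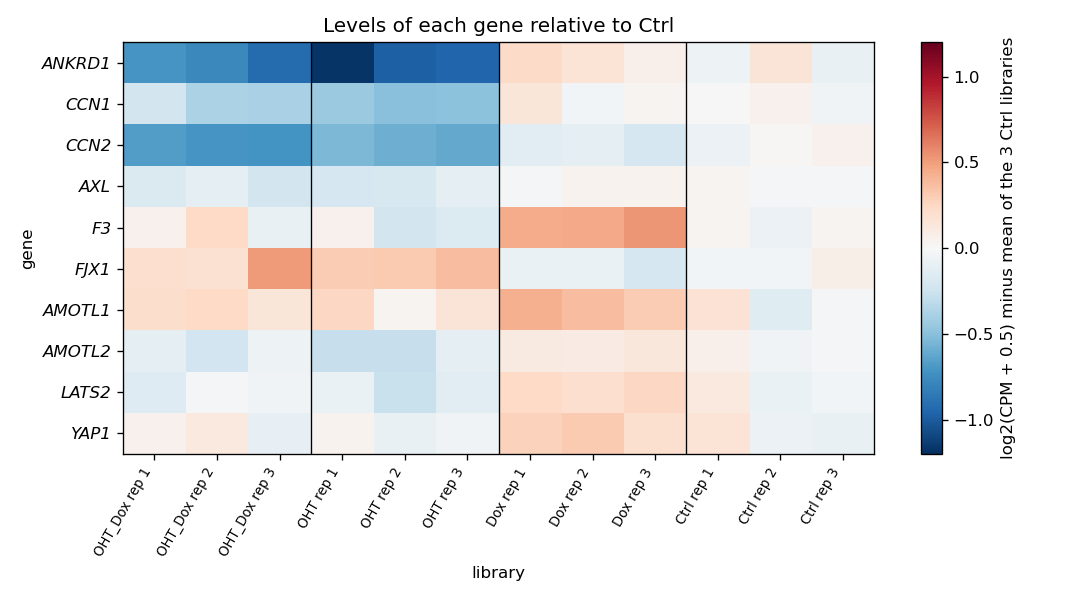
Level of each of the 10 genes in each library, as log2(CPM + 0.5) minus the mean of the 3 Ctrl libraries (colour, blue below and red above). ANKRD1, CCN1 and CCN2 are blue in all 6 libraries with OHT, FJX1 is red there, and F3, AMOTL1, LATS2 and YAP1 are red in the 3 Dox libraries.

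Other genes of a published YAP and TAZ target signature were set beside the 10. Of 14 listed genes 13 were in the table and all 13 were tested. In OHT against Ctrl, 1 rose and 4 fell (of all genes tested, 12.6% and 8.79%), with a median of 0.01, against -0.01 over all genes. GADD45A, a stress-induced growth arrest gene, fell by 0.67 ± 0.10 (limma, adjusted p = 6.7e-05), at 34.1, 34.7 and 37.1 CPM in OHT, against 48.6, 71.4 and 52.1 CPM in Ctrl. IGFBP3, which binds insulin-like growth factors, fell by 0.34 ± 0.07 (limma, adjusted p = 0.0022), at 78.6, 96.1 and 98.3 CPM in OHT, against 109, 118 and 116 CPM in Ctrl. The other falls were NUAK2 (-0.33) and CCDC80 (-0.19), both named after their values were seen. Their calls were lost in 2 and 6 of the 12 fits without 1 library. ARHGEF17 rose (0.30 ± 0.09, limma, adjusted p = 0.017), a call lost without OHT replicate 1 (0.25) or Ctrl replicate 2 (0.20). In OHT_Dox against Dox, 0 rose and 4 fell, with a median of -0.14, against -0.03 over all genes, of which 11.5% rose and 14.5% fell. These were CRIM1 (-0.26 ± 0.06), NT5E (-0.22 ± 0.05), PTPN14 (-0.37 ± 0.10), a phosphatase that restrains YAP, and GADD45A (-0.35 ± 0.10). GADD45A was the gene of this list called in both. In OHT_Dox against Dox its call was lost without OHT_Dox replicate 3 (-0.32) or Dox replicate 2 (-0.30), and that of PTPN14 without OHT_Dox replicate 3 (-0.29).

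In Dox against Ctrl, 2 of the 13 signature genes rose and 2 fell (of all genes tested, 5.68% and 2.61%), with a median of 0.10. The rises were NT5E (0.22) and ARHGEF17 (0.30), whose calls were lost in 4 and 6 of the 12 fits without 1 library. Under TMM scaling 0 rose and 2 fell. IGFBP3 fell by 0.43 ± 0.07 (limma, adjusted p = 0.0022) and had 88.5, 86.7 and 79.8 CPM in Dox, against 109, 118 and 116 CPM in Ctrl. TGFB2, a TGF-beta ligand, fell by 0.36 ± 0.10 in Dox against Ctrl and by 0.71 ± 0.10 in OHT_Dox against OHT (limma, adjusted p = 2.6e-04), where it was the 1 signature gene called. In Dox against Ctrl the call of TGFB2 was lost without Dox replicate 2 (-0.31), Dox replicate 3 (-0.39), Ctrl replicate 1 (-0.22) or Ctrl replicate 3 (-0.39). TGFB2 had 89.2, 82.5 and 81.5 CPM in OHT_Dox, against 158, 126 and 132 CPM in OHT.

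Of 24 listed genes of the Hippo pathway, its coactivators and its DNA-binding partners, 22 were tested. In OHT against Ctrl, 2 rose and 1 fell, with a median of -0.02, where 12.6% of all genes rose and 8.79% fell. In OHT_Dox against Dox, 2 rose and 7 fell, with a median of -0.16, against -0.03 over all genes, of which 11.5% rose and 14.5% fell. TEAD4, one of the DNA-binding partners, rose in both: it had 65.9, 68.9 and 71.7 CPM in OHT, against 42.0, 51.0 and 46.0 CPM in Ctrl (0.57 ± 0.07, limma, adjusted p = 5.5e-06). With Dox, TEAD4 had 73.8, 68.7 and 75.5 CPM in OHT_Dox, against 44.3, 42.0 and 42.2 CPM in Dox (0.76 ± 0.07, limma, adjusted p = 1.8e-07). TEAD2 fell in OHT against Ctrl (-0.28 ± 0.09), a call lost without OHT replicate 1 (-0.29), OHT replicate 2 (-0.25) or Ctrl replicate 1 (-0.26), 2 (-0.28) or 3 (-0.29). TEAD1 (0.18 ± 0.10) and TEAD3 (0.03 ± 0.08) were not called there. In OHT_Dox against Dox neither TEAD1 (-0.28 ± 0.10), TEAD2 (-0.11 ± 0.09) nor TEAD3 (-0.04 ± 0.08) was called.

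Upstream, WWC1 (KIBRA), a scaffold that promotes LATS activity, rose by 0.39 ± 0.06 in OHT against Ctrl (limma, adjusted p = 5.2e-05) and by 0.47 ± 0.06 in OHT_Dox against Dox (limma, adjusted p = 5.5e-06). WWC1 had 48.2, 48.7 and 50.2 CPM in OHT, against 36.7, 38.1 and 37.2 CPM in Ctrl. FRMD6, a FERM-domain protein of the same layer, fell by 0.35 ± 0.07 in OHT_Dox against Dox, VGLL3, a TEAD cofactor, by 0.50 ± 0.12, and WWTR1, the paralogue of YAP1, by 0.23 ± 0.06, at 50.7, 50.3 and 50.4 CPM in OHT_Dox, against 56.3, 62.9 and 58.5 CPM in Dox. That call of WWTR1 was lost without Dox replicate 2 (-0.18), and WWTR1 was not called in OHT against Ctrl (-0.09 ± 0.06). LATS1, the paralogue of LATS2, was called in neither (0.04 ± 0.10 in OHT against Ctrl and -0.26 ± 0.10 in OHT_Dox against Dox).

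In Dox against Ctrl, 4 of the 22 Hippo genes rose and 1 fell, with a median of 0.13, against 0.05 over all genes, of which 5.68% rose and 2.61% fell. The scaffold SAV1 (0.25 ± 0.07), AMOT, the founder of the angiomotin family (0.42 ± 0.10), TEAD1 (0.36 ± 0.10) and the LATS cofactor MOB1B (0.26 ± 0.08, named after its values were seen) rose. Under TMM scaling 1 rose and 1 fell. FRMD6 fell (-0.23 ± 0.07). None of these 5 calls held without Dox replicate 2, Dox replicate 3 or Ctrl replicate 3, where SAV1 was at 0.24, 0.28 and 0.25, AMOT at 0.45, 0.41 and 0.36, TEAD1 at 0.33, 0.42 and 0.29, MOB1B at 0.27, 0.28 and 0.23, and FRMD6 at -0.26, -0.20 and -0.22. Without Ctrl replicate 2 the 4 rises were lost too (SAV1 0.23, AMOT 0.34, TEAD1 0.29, MOB1B 0.23), without Dox replicate 1 all but AMOT (SAV1 0.23, TEAD1 0.34, MOB1B 0.23, FRMD6 -0.23) and without Ctrl replicate 1 FRMD6 (-0.16). TEAD1, MOB1B and FRMD6 also lost their calls, with the same folds, without OHT_Dox replicate 1 or OHT replicate 3. In OHT_Dox against OHT, FRMD6 was the 1 gene of this list called (-0.53 ± 0.07, limma, adjusted p = 5.6e-05), at 80.4, 86.8 and 80.1 CPM in OHT_Dox, against 124, 116 and 119 CPM in OHT. In the test of the difference of OHT effects, limma called 0 of the 13 signature genes (6 at an unadjusted p below 0.05) and 0 of the 22 Hippo genes (5 at an unadjusted p below 0.05). Of all 18674 genes tested, 2879 were at an unadjusted p below 0.05 and 0 were called.

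**Figure D4:**
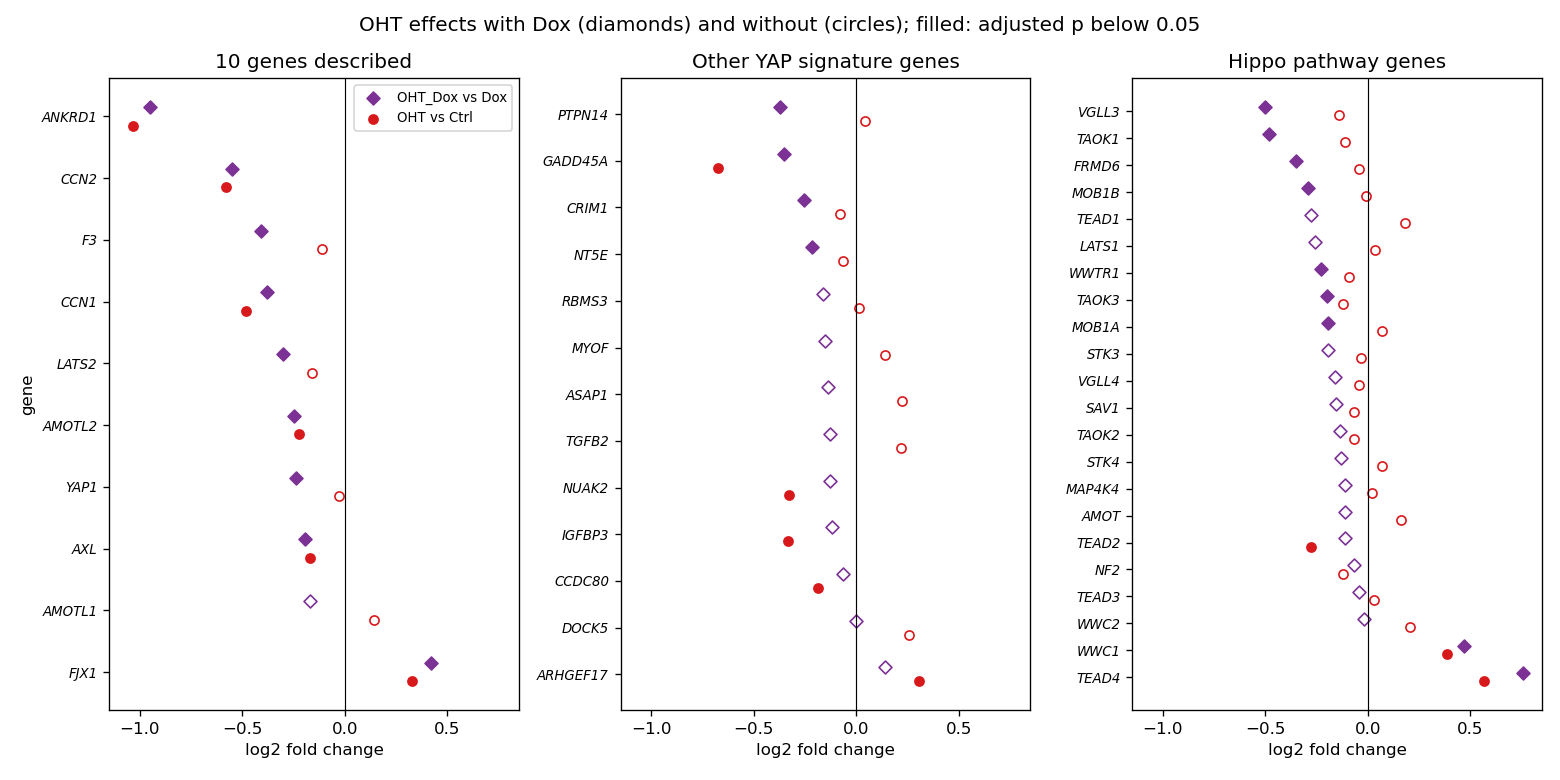
Log2 fold change (horizontal axis) for OHT_Dox against Dox (diamonds) and OHT against Ctrl (circles) in the 10 genes, 13 other signature genes and 22 Hippo pathway genes, filled where the adjusted p was below 0.05. TEAD4 and WWC1 lie to the right of 0 in both comparisons, and ANKRD1 lies farthest to the left.

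Likeness of pattern was described by Pearson's r of log2(CPM + 0.5) over the 12 libraries, which share treatments and depth, so these values are descriptive. Of the 45 pairs among the 10 genes, 35 were positive. ANKRD1 and CCN1 were most alike (0.97), followed by ANKRD1 with AXL (0.93) and ANKRD1 with CCN2 (0.89). FJX1 ran opposite to AXL (-0.93), ANKRD1 (-0.91) and CCN1 (-0.90). F3 was alike to YAP1 (0.88). Among genes that have a symbol and average 5 CPM or more, those most like ANKRD1 were HBE1 (0.99), HBG2 (0.99) and SHCBP1 (0.98), and HBG2 is uncertain because HBG1 is a near-identical copy. Most like CCN1 were ANKRD1 (0.97), IL11 (0.96) and NR2F2 (0.96). Most like CCN2 were SERTAD3 (0.99), BTG1 (0.97) and TNFAIP8L1 (0.97). FJX1 was most like TIGD5 (0.98), SSBP4 (0.97) and ELOF1 (0.97), and AXL was like RAD51AP1 (0.98) and TADA2B (0.97). For F3 these were DCAF8 (0.96), SLC31A1 (0.96) and RADX (0.96). AMOTL1 was most like NIPA1 (0.97), AP2B1 (0.97) and KDM5B (0.96), and AMOTL2 most like ARHGAP17 (0.96), TUFT1 (0.96) and PRUNE1 (0.95). LATS2 was most like TSC22D2 (0.97), RNF41 (0.96) and BSDC1 (0.96), and YAP1 most like IL6ST (0.98), ACAP2 (0.98) and TUG1 (0.98).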

How the data were processed

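Poly(A) RNA was sequenced in 12 stranded libraries, 4 groups of 3 (NEBNext Ultra II Directional), per the labels' protocols. The authors deposited CPM, which sum to 1000000 per library over 28576 genes. Builds hg19 and mm10 and the tools featureCounts, STAR, Bowtie, Bowtie2, DRAGEN and FastQC are named, without roles, per the submitters' processing notes. The strand setting is not given in the sources used here. All deposited CPM values were whole multiples of 1 read within 0.01 read, so whole reads (44466458 to 57694970 per library) were recovered for edgeR 4.0.16 and DESeq2 1.42.0. On these, edgeR's quasi-likelihood test called 4038 genes in OHT against Ctrl, 4735 in OHT_Dox against Dox, 1319 in Dox against Ctrl and 458 in OHT_Dox against OHT.

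Identifiers were matched to GENCODE 29 (28572 matched) for exon length and GC content; no gene coordinates of the files were used. Genes with at least 0.5 CPM in at least 3 libraries (18674) entered limma 3.58.1 (R 4.3.3) on log2(CPM + 0.5), which understates changes of low genes, with 4 group means and a mean trend. Tests were two-sided, Benjamini-Hochberg adjusted over all genes of a contrast, and called below 0.05. The script was tested on simulated data.

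The 10 genes and the lists were chosen with earlier results of these data known. The naming rule took all 10, TCEAL1, MYCN, LATS1, AMOT, WWTR1, the TEAD genes, up to 4 called genes with the smallest adjusted p per list and the 3 genes most like each of the 10, of which 1 is not reported here. Genes that overlap one of the 10 were named for that overlap. Alternatives were other pseudocounts, filters and scalings, other tools, a replicate block, leaving out each library and 2 added after seeing the data.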

Additional observations from a re-analysis of the deposited data

How the results depend on the processing

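Of 1190 folds of the 10 genes under 24 alternatives, 1149 stayed on their side of the threshold, 32 lost the call and 9 gained it. The sign changed in 0 called folds and in 25 uncalled ones. The falls of ANKRD1, CCN1, CCN2 and AMOTL2 and the rise of FJX1 with OHT were called under every alternative in both settings. The report gives the calls of AXL, F3, AMOTL1, LATS2, YAP1 and CCN2 that changed without single libraries. Beyond these, the calls lost were AXL in OHT against Ctrl with only those groups fitted, F3 without a filter (Dox against Ctrl, OHT_Dox against Dox) and YAP1 or AMOTL1 without a mean trend, and for YAP1 in Dox against Ctrl also with edgeR (0.21) and without GC and length trends (0.14). Without Dox replicate 1 and OHT_Dox replicate 3 together, F3 (-0.35) and YAP1 (-0.17) lost theirs in OHT_Dox against Dox and YAP1 (0.25) in Dox against Ctrl. Calls gained were LATS2 in OHT against Ctrl without those trends (-0.20), AMOTL1 in OHT_Dox against Dox with only those groups fitted (-0.17), and CCN2 in Dox against Ctrl with edgeR and DESeq2 (-0.20). Leaving out each library in turn gave counts of the 10 genes called of 5 to 7 in OHT against Ctrl, 7 to 9 in OHT_Dox against Dox, 0 to 5 in Dox against Ctrl, 0 to 0 in OHT_Dox against OHT and 0 to 1 for the difference of OHT effects. For the other signature genes the ranges were 2 to 9, 2 to 4, 1 to 7, 1 to 2 and 0 to 4 in the same order, for the Hippo genes 2 to 5, 6 to 12, 0 to 8, 1 to 1 and 0 to 3, and for all genes 2813 to 4302, 3556 to 5132, 197 to 3180, 196 to 503 and 0 to 1041. In Dox against Ctrl, the fit without a mean trend called 1 of the 10 genes, 1 signature gene, 0 Hippo genes and 324 genes in all (main 3, 4, 5 and 1548). There, no filter gave 2 signature genes, 2 Hippo genes and 992 genes in all, TMM scaling 2 signature and 2 Hippo genes, edgeR 2 Hippo genes, and removing GC and length trends 3 Hippo genes. That trend removal, also added after seeing the data, gave 6 Hippo genes in OHT against Ctrl, and 2 signature genes, 2 Hippo genes and 716 genes in all in OHT_Dox against OHT (main 1, 1 and 392). In OHT_Dox against OHT, DESeq2 gave 2 Hippo genes and 680 genes in all, and no mean trend 218 genes. Without a mean trend 2 signature genes were called in OHT against Ctrl and 2 in OHT_Dox against Dox. Leaving out Dox replicate 1 and OHT_Dox replicate 3 together, a pair added after seeing the data, gave 1 Hippo gene in Dox against Ctrl, and 5 Hippo genes, 0 signature genes and 2980 genes in all in OHT_Dox against Dox (main 9, 4 and 4862). For the difference of OHT effects, limma called 0 genes (2879 at an unadjusted p below 0.05), edgeR 0 and DESeq2 1. The cause of these shifts was not tested.

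Libraries with the same replicate number deviated together in part (correlations of -0.17 to 0.33 over 18 pairs, 7 above 0.1). Of 12 libraries, 9 were most like their own number, and replicate 3 deviated upward with GC content in every group (Spearman correlations 0.117 to 0.528). The main fit did not take the numbers as pairs, so any shared part stays in its spread. With the number as a replicate block, 4528 genes were called in OHT against Ctrl and 5422 in OHT_Dox against Dox (main 3998 and 4862). In Dox against Ctrl 2525 were called and in OHT_Dox against OHT 631 (main 1548 and 392). The counts of the 10 genes called were as in the main fit. That block gave 8 signature genes in Dox against Ctrl, 8 in OHT against Ctrl and 2 in OHT_Dox against OHT, and 2 Hippo genes in OHT_Dox against OHT. TMM scaling moved the median of all genes by at most 0.05 in size. Precision is limited by 3 libraries a group, and for F3, at 2.51 to 4.56 CPM, by its low level.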
